A study of Cucumis sativus with 2 samples.

Results

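MYB transcription factors of cucumber (Cucumis sativus) were followed in bending fruit, with 1 RNA library made from ventral tissue and 1 from dorsal tissue at day 2 after anthesis. The members are the rows of the deposited read table whose gene symbol begins with MYB, ATMYB or MYBR and a number, or whose description reads as a MYB domain or MYB-like protein, without the clock genes LHY, CCA1 and the RVE genes. This gave 81 of 20700 genes, with homologues at 56 Arabidopsis loci, 20 of which were listed for 2 or more cucumber copies. The labels give no cultivar, genotype or treatment and do not say how many fruits went into a library. The ventral library held 21863715 reads and the dorsal library 11893394.

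MYB proteins bind DNA through repeats of a helix-turn-helix fold. In plants the class with a pair of such repeats, R2R3, is large, and its subgroups control phenylpropanoid and cell wall synthesis, epidermal cell fate and cuticle, responses to wounding, abscisic acid and jasmonate, and the formation of anthers and organ boundaries. Proteins with 3 repeats act in the cell cycle. Roles below are those of the Arabidopsis homologue that the deposited table names for each cucumber gene, stated as background.

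With 1 library per side there is no replicate, so no test between the sides, p-value or standard deviation can be given, and nothing here separates the sides from the spread between fruits. Ratios are ventral over dorsal reads after TMM scaling, a trimmed-mean correction for depth that set the ventral library 2.16 times as deep. Square brackets hold 95% limits on the log2 scale, exact binomial limits that cover counting error only. A gene was measured with at least 20 reads in the libraries together, and it stood apart, as ventral-high or dorsal-high, when its ratio reached 2-fold and the limits left out equal levels. These thresholds describe 2 libraries and are no test. In such bulk tissue, fewer cells of a type and less RNA per cell cannot be told apart.

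Of the 81 MYB genes 53 were measured. Among them 10 were ventral-high (18.9%, beside 13.2% of all 17462 measured genes), 14 were dorsal-high (26.4%, beside 11.5%), and 29 were neither. The median log2 ratio was -0.17, beside 0.01 for all measured genes. The MYB genes did not lie to one side, as 25 had ratios above and 28 below equal levels, and the values ran from 2.91 to -2.49. Their share standing apart in either direction, 45.3% beside 24.7%, has to be read with their depth, since genes with few reads stand apart more often. With 20 or more but under 100 reads 11 of 17 MYB genes stood apart, beside 38.2% of all genes of that depth. From 100 to under 500 reads it was 8 of 21, beside 25.9%, and with 500 or more 5 of 15, beside 21%. A low-read gene can also pass the minimum through the library in which it is high, and of the 41 MYB genes with at least 20 reads in each library 15 stood apart (36.6%, beside 22% of all genes under the same minimum). Left out by that stricter minimum were the ventral-high MYB116, MYB78, MYB65, MYB33, MYB40 and MYB61, with under 20 dorsal reads each. The dorsal-high MYB15, MYB98 and MYB63, with under 20 ventral reads each, were left out too. Scaling by total reads adds 0.23 to every log2 ratio. It moved the MYB median to 0.07, beside 0.24 for all genes, and gave 12 ventral-high and 9 dorsal-high members, beside 19.1% and 7.35% of all measured genes (26.5% in either direction).

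**Figure D1:**
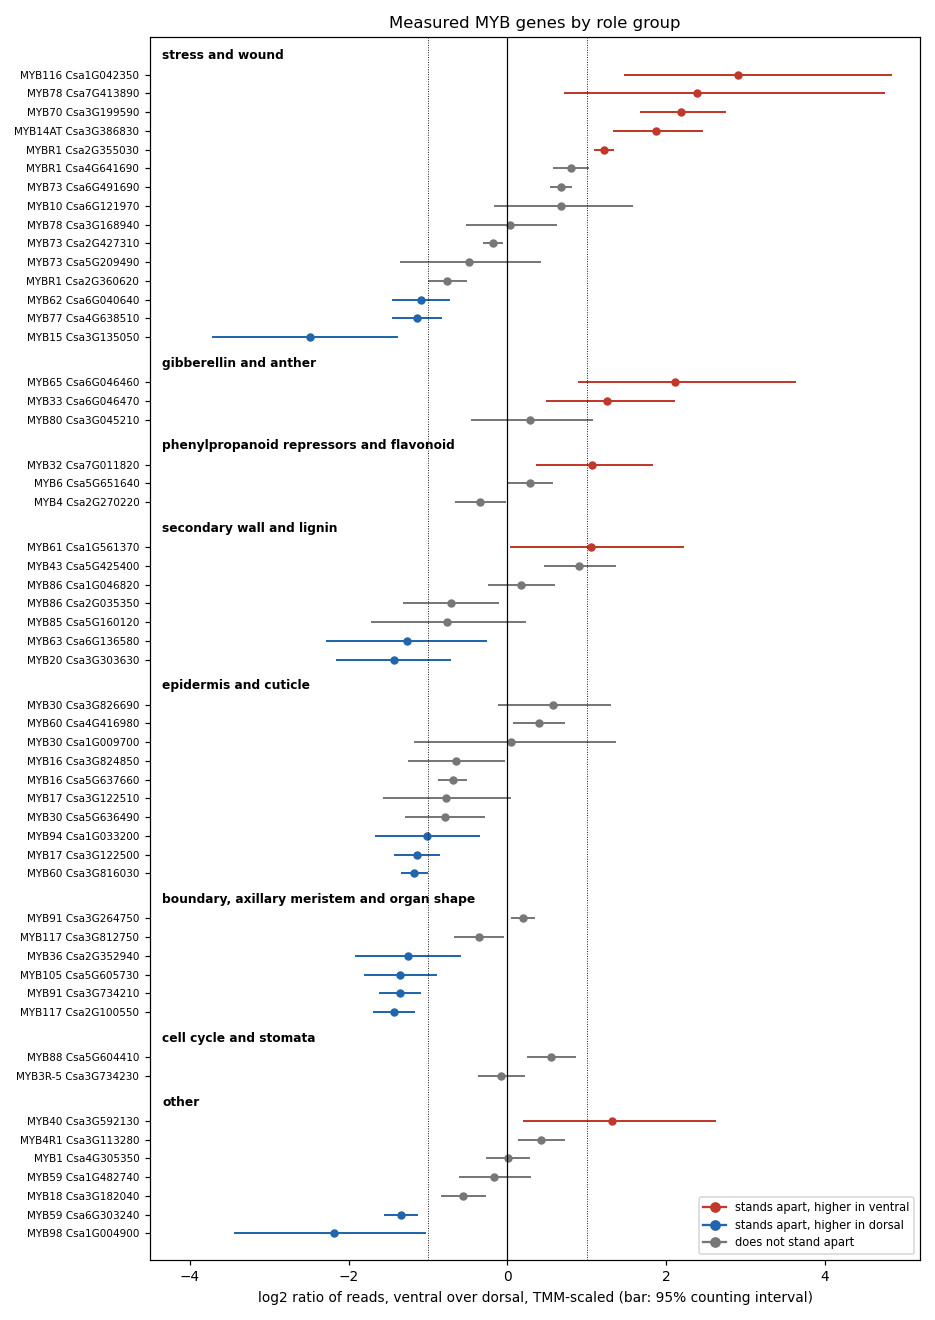
Log2 ratio of TMM-scaled reads, ventral over dorsal, for the 53 measured MYB genes, grouped by the role of the Arabidopsis homologue. Points are ratios, bars are 95% counting intervals, dotted lines mark 2-fold, and the stress and wound group holds both the highest value (MYB116, 2.91) and the lowest (MYB15, -2.49).

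The largest group was that of stress and wound regulators, with 23 members, of which 15 were measured. Of these 5 were ventral-high (33.3%), 3 were dorsal-high (20%) and 7 were neither, around a median log2 ratio of 0.67. Among all measured genes 13.2% were ventral-high and 11.5% dorsal-high. The highest ratios belonged to the subgroup of MYB62, MYB78, MYB108 and MYB116, whose Arabidopsis members include the jasmonate and pathogen response factor MYB108. MYB116 (Csa1G042350) was counted 65 times ventrally and 4 times dorsally, which makes it 7.53-fold ventral-high [1.49 to 4.83]. MYB78 (Csa7G413890) had 34 and 3 reads, 5.25-fold higher ventrally [0.72 to 4.74]. MYB108 (Csa3G535090) had 13 ventral reads and none in the dorsal library. That is 2.01-fold higher if a floor of 3 dorsal reads is assumed, and the lower counting limit was 0.50 on the log2 scale. With so few reads it did not count as measured. Going the other way, MYB62 (Csa6G040640), linked in Arabidopsis to phosphate starvation and gibberellin synthesis, had 139 and 137 reads, which after scaling was 2.13-fold higher dorsally [-1.44 to -0.74]. Its log2 ratio was -0.75 once the length trend described further on was removed, when it no longer stood apart.

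Homologues of MYB44, MYB70, MYB73 and MYB77, a subgroup of regulators of abscisic acid, salt and auxin responses, were abundant in both libraries and all measured. Levels between genes are compared in RPKM, the deposited values scaled by transcript length and library depth. That depth scaling sets ventral values, and sums of them, higher against dorsal ones than the TMM ratios do. The listed name MYBR1 is an alias of MYB44, an abscisic acid and wound response factor. Its copy Csa2G355030 had the highest level of any member in the ventral library, 169 RPKM from 4004 reads, against 60.8 RPKM from 799 reads in the dorsal library, where it came second. The scaled ratio was 2.32-fold [1.10 to 1.33], and it is the MYB gene with the narrowest limits among those that stood apart. MYB70 (Csa3G199590) had 345 ventral and 35 dorsal reads, 4.56-fold higher ventrally [1.69 to 2.74]. MYB77 (Csa4G638510), which in Arabidopsis works with auxin response factors in lateral root growth, had 184 and 187 reads and was 2.19-fold higher dorsally, although not with the length trend removed (-0.66). The 8 genes of this subgroup together made up 49.3% of the summed RPKM of all MYB genes ventrally and 33% dorsally. Of the 8, 2 were ventral-high (25%), 1 was dorsal-high (12.5%) and 5 were neither. The shares among all measured genes were 13.2% ventral-high and 11.5% dorsal-high. The 3 MYBR1 copies alone held 28.8% and 15.5% of the family's summed level, and the 3 MYB73 copies 16.2% and 13.9%.

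The remaining stress homologues pointed both ways. The gene listed as MYB14AT (Csa3G386830), whose locus is that of MYB14, a factor tied to cold tolerance in Arabidopsis, had 254 ventral and 32 dorsal reads, 3.68-fold higher ventrally [1.34 to 2.46]. MYB15 (Csa3G135050), of the same subgroup and in Arabidopsis a repressor of DREB1/CBF cold genes and an activator of defence lignin, had 10 ventral and 26 dorsal reads and lay 5.61-fold higher dorsally [-3.71 to -1.39]. A further pair of MYB15 copies had too few reads, 2 and 0 in Csa2G174670 and 0 and 3 in Csa7G375780. MYB10 (Csa6G121970), which acts in iron shortage, had 55 and 16 reads and a log2 ratio of 0.67 with limits on either side of equal levels [-0.15 to 1.57].

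Both homologues of the gibberellin-linked factors MYB33 and MYB65, which miR159 holds down in Arabidopsis and which act in the anther and seed, were ventral-high. They are 2 of the 3 measured members of the gibberellin and anther group (66.7%, beside 13.2% of all measured genes). MYB65 (Csa6G046460), with 56 reads ventrally and 6 dorsally, was 4.32-fold ventral-high [0.90 to 3.62]. MYB33 (Csa6G046470) had 88 and 17 reads, 2.40-fold [0.50 to 2.10]. Their identifiers follow each other on chromosome 6, and the exonic length of MYB65 was only 447 bp against 1313 bp for MYB33. Whether they are separate genes or parts of 1 gene model cannot be told here, yet they count as 2 ventral-high members. Of the other anther factors, MYB80, a regulator of tapetum and pollen, had 58 and 22 reads in Csa3G045210 and did not stand apart (0.29). Stamen factors MYB21 (Csa3G837580) and MYB24 (Csa5G524720) had 7 and 13 ventral reads and none dorsally, and the pollen tube factor MYB120 (Csa3G076520) had 0 ventral and 4 dorsal reads. All 3 fell short of the read minimum, and the deposited RPKM of MYB24 in the dorsal library is 0.19 although its read count there is 0.

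Among 3 homologues of the phenylpropanoid repressors, MYB32 (Csa7G011820) had 95 ventral and 21 dorsal reads, 2.09-fold higher ventrally [0.37 to 1.82]. MYB4 (Csa2G270220), which in Arabidopsis represses cinnamate 4-hydroxylase, had 244 and 143 reads and a log2 ratio of -0.34. MYB6 (Csa5G651640), of the same subgroup, had 403 and 153 reads and a ratio of 0.29. Neither reached 2-fold.

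Secondary wall and lignin regulators were low in these fruits and split between the sides. Of 13 members 7 were measured, with 1 ventral-high (14.3%), 2 dorsal-high (28.6%) and a median log2 ratio of -0.71. Beside them, 13.2% of all measured genes were ventral-high and 11.5% dorsal-high. MYB61 (Csa1G561370), a regulator of xylem, seed mucilage and stomatal aperture, had 45 and 10 reads, 2.08-fold higher ventrally with a lower limit close to equal levels [0.05 to 2.21]. The lignin activators MYB20 (Csa3G303630, 32 and 40 reads) and MYB63 (Csa6G136580, 18 and 20 reads) were 2.70-fold [-2.15 to -0.73] and 2.40-fold [-2.27 to -0.27] higher dorsally. Both were short of 2-fold with the length trend removed, at -0.98 and -0.78. MYB43 (Csa5G425400), from the subgroup of MYB20, was the most abundant member of this group in both libraries by reads per length apart from a MYB86 copy in the dorsal library, with 10.2 ventral and 4.58 dorsal RPKM. Its ratio of 226 to 56 reads, 1.87-fold, lay just under 2-fold and was 1.26 on the log2 scale with the trend removed, when it stood apart. MYB103, a pair of MYB52 copies, MYB54 and the second copies of MYB85 and MYB86 had 14 reads or fewer each. Xylem markers were measured beside them: 4 of 13 measured were dorsal-high (30.8%, beside 11.5% of all measured genes) and none ventral-high. Their median log2 ratio was -0.22, and the list summed to 63.8 RPKM ventrally and 118 dorsally. The cysteine protease XCP1 (Csa7G027790) was 3.44-fold higher dorsally, and the only xylem markers at 0 in either library, an XCP1 copy and an IRX12 copy, had 1 ventral read each. Of 22 measured phloem markers 1 was ventral-high (4.55%) and 5 dorsal-high (22.7%), with a median of -0.28 and summed levels of 7374 and 8256 RPKM. Most of these sums came from the PP2-A1 copies Csa7G056500 (4625 and 5641 RPKM) and Csa1G542510 (1515 and 1220 RPKM). The part of vascular content in these MYB ratios was not tested.

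Of 11 epidermis and cuticle regulators 10 were measured, none of them ventral-high and 3 dorsal-high, beside 13.2% and 11.5% of all measured genes. The group median was -0.73, and 7 of 10 ratios were below equal levels. MYB60 (Csa3G816030), which in Arabidopsis opens stomata from the guard cells, had 630 ventral and 657 dorsal reads, 23.4 against 43.9 RPKM and 2.25-fold higher dorsally [-1.33 to -1.01]. MYB17 (Csa3G122500), an inflorescence regulator from the subgroup of conical-cell factors, had 210 and 214 reads and was 2.20-fold higher dorsally [-1.42 to -0.86]. The wax activator MYB94 (Csa1G033200), with 44 and 41 reads, sat on the threshold at 2.01-fold. MYB16 (Csa5G637660), which promotes cuticle formation, was well expressed at 21.8 and 29.3 RPKM and had a log2 ratio of -0.69. With the length trend removed none of the 10 stood apart, and MYB60, MYB17 and MYB94 were at -0.94, -0.72 and -0.62. The 15 measured epidermis markers had a median log2 ratio of 0.16, with 1 ventral-high and 4 dorsal-high. The summed level of the list was 257 RPKM ventrally and 203 dorsally, a scaling that sets the ventral side higher than TMM does. The dorsal-high markers were PDF2 (Csa6G514870, log2 ratio -1.26), LACS2 (-1.10), a CER1 copy (Csa3G127770, -1.18) and CER5 (-1.11), and the ventral-high one was ATML1 (1.42). All 5 also stood apart with the length trend removed. A GL2 copy (4 and 0 reads) and a CER1 copy (1 and 0) were the epidermis markers at 0. The outer-layer gene PDF1 was near equal levels in copy Csa6G178950 (1720 and 791 reads, log2 ratio 0.01) and at 0.85 in copy Csa6G423360 (2884 and 742 reads). Guard cell lineage markers were low, at 10.4 and 11.2 RPKM summed over 9 genes, of which 5 were measured (1 ventral-high, 1 dorsal-high, median -0.34), with MUTE at 0 reads in the ventral library and TMM at 0 in the dorsal library. Whether cell composition plays a part in the ratios of this group was not tested.

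Homologues of organ boundary and organ shape factors had mostly lower ventral than dorsal levels, with 5 of 6 measured ratios below equal levels. Of 9 members 6 were measured, of which 4 were dorsal-high and none ventral-high, beside 11.5% dorsal-high and 13.2% ventral-high among all measured genes, and the median log2 ratio was -1.30. The group was set by MYB number and takes in MYB36, a root regulator described below, which is 1 of the 4. With the length trend removed 3 were dorsal-high, beside 8.25% of all genes. In Arabidopsis MYB117 and MYB105 are the lateral organ fusion factors that keep organs apart, and MYB91 is AS1 (asymmetric leaves), which silences KNOX genes and shapes leaf polarity. MYB117 (Csa2G100550) had 236 ventral and 294 dorsal reads, 2.69-fold higher dorsally [-1.68 to -1.18]. MYB91 (Csa3G734210) had 242 and 286 reads, 2.55-fold [-1.60 to -1.10], and MYB105 (Csa5G605730) had 79 and 93, 2.54-fold [-1.80 to -0.90]. These 3 stood apart with total-read scaling and with the length trend removed as well. MYB36 (Csa2G352940), a regulator of the Casparian strip in roots, had 40 and 44 reads and a 2.38-fold dorsal excess, which was -0.96 on the log2 scale with the trend removed. The most abundant gene of the group, the other MYB91 copy (Csa3G264750), had 1496 and 604 reads and a log2 ratio of 0.20, and the other MYB117 copy (Csa3G812750), with 250 and 148 reads, was at -0.35.

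Neither of the 2 members with a role in cell division or the stomatal lineage stood apart. Both copies of the 3-repeat factor MYB3R1, listed under another name and so outside the members, did. MYB88 (Csa5G604410), which stops divisions in the stomatal lineage, had 409 and 129 reads and a log2 ratio of 0.55, and the 3-repeat factor MYB3R-5 (Csa3G734230), a repressor of mitotic genes, had 330 and 161 reads and a ratio of -0.08 [-0.35 to 0.21]. Of members outside these groups, MYB59 (Csa6G303240), a root growth factor, had the highest level of any MYB gene in the dorsal library, 64.1 RPKM from 449 reads, against 30.5 RPKM from 384 reads ventrally. It was 2.52-fold higher dorsally [-1.54 to -1.14] and at -0.87 with the length trend removed. MYB98 (Csa1G004900), which marks the synergid cells of the embryo sac, had 10 ventral and 21 dorsal reads, 4.53-fold higher dorsally [-3.43 to -1.03]. MYB40 (Csa3G592130) had 43 and 8 reads, 2.49-fold higher ventrally [0.21 to 2.62]. MYB18 (Csa3G182040), also called LAF1 and linked to phytochrome A signalling, had levels of 14.3 and 17.5 RPKM and a log2 ratio of -0.56. Ovule and seed markers, beside MYB98, included 4 measured genes, none of which stood apart. Their median log2 ratio was -0.32, and the list summed to 47.3 RPKM ventrally and 50.9 dorsally. The 3 measured genes below equal levels were all ANT copies (-0.52, -0.46 and -0.18), and most of both sums came from them. BEL1 (Csa5G152860, 67 and 16 reads) lay the other way at 0.96. Only 3 of 5 listed loci were found, and the INO copies fell short of the read minimum. The part of ovule content was not tested.

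MYB levels were uneven. The summed level of all 81 genes was 756 RPKM ventrally and 641 dorsally, and the 5 most abundant genes made up 49.4% and 40.7% of it. In the ventral library these were MYBR1 (Csa2G355030), both abundant MYB73 copies (Csa6G491690 at 63.1 and Csa2G427310 at 57.6 RPKM), MYB91 (Csa3G264750 at 51.4) and a second MYBR1 copy (Csa4G641690 at 32.8). In the dorsal library MYB59 (Csa6G303240) and MYB60 (Csa3G816030) took the place of Csa6G491690 and Csa4G641690. The epidermis and cuticle group held 12.5% of the summed level ventrally and 20.2% dorsally. RPKM carries the authors' own depth scaling, by which ventral values sit higher against dorsal ones by 0.26 on the log2 scale than in the TMM ratios. The order of neighbouring genes within a library cannot be judged, as there is no replicate.

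**Figure D2:**
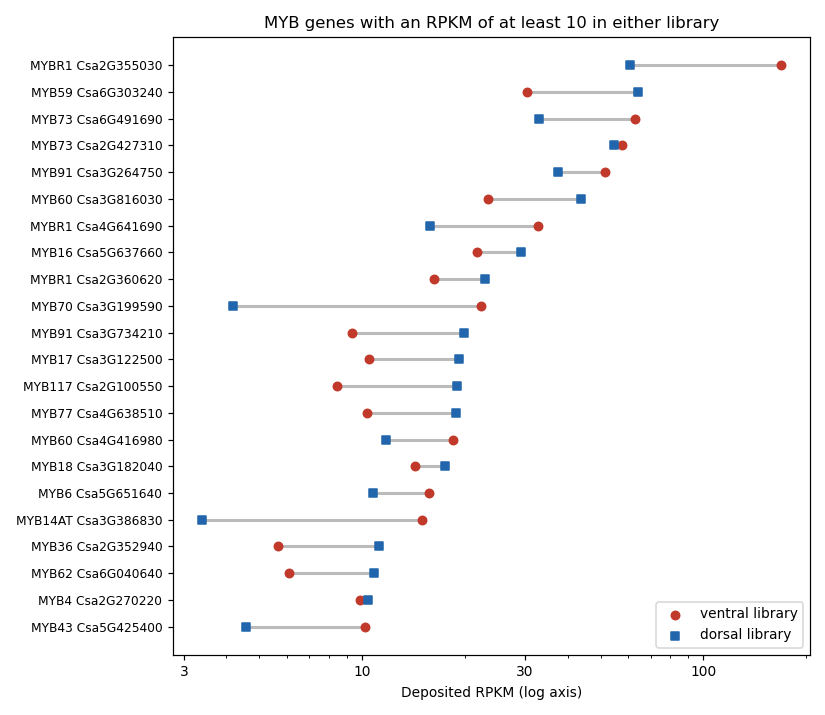
Deposited RPKM on a log axis in the ventral library (circles) and the dorsal library (squares) for the 22 MYB genes that reached 10 RPKM in either library, sorted by the higher value. MYBR1 Csa2G355030 is the highest at 169 ventral RPKM, and MYB70 and MYB14AT show the widest gaps.

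Copies that share an Arabidopsis homologue often had different ratios. The ratio between the ratios of a pair does not depend on library scaling, so it was computed for all 17 pairs of measured copies, from 11 homologues, with exact conditional 95% limits for counting error. In 12 pairs the limits left out equality, and in 9 of these the copies differed at least 2-fold. The pairs are not separate from each other, as those of MYBR1, of MYB73 and of MYB30 share copies. The MYB17 pair has neighbouring identifiers and exonic lengths of 912 and 278 bp, and may be parts of 1 gene model. No such count was made for copies of other genes, so whether MYB copies differ more often than others was not tested. The MYBR1 copies spanned the widest range among well-counted genes: Csa2G355030 stood at 1.21, Csa4G641690 at 0.80 (837 and 223 reads) and Csa2G360620 at -0.76 (344 and 269 reads). The first and last differed 3.92-fold [1.71 to 2.23]. The MYB60 copies differed 2.97-fold [1.22 to 1.93], as Csa4G416980 (18.5 ventral and 11.7 dorsal RPKM) had a log2 ratio of 0.40 while Csa3G816030 was at -1.17. The more abundant copy was the dorsal-high one, at 3.74 times the level of the other in the dorsal library and 1.26 times in the ventral library.

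For MYB91 the reverse held, with the abundant copy near equal levels and the scarcer one dorsal-high, a 2.93-fold difference [1.26 to 1.84]. The 2 MYB78 copies differed 5.11-fold with wide limits [0.55 to 4.77], as Csa3G168940 had 91 and 41 reads and a ratio of 0.04. Copies of MYB59 and of MYB117 differed 2.25-fold [0.69 to 1.66] and 2.10-fold [0.68 to 1.47], in each case with 1 copy dorsal-high. The abundant MYB73 copies, from a factor that restrains salt responses, differed 1.82-fold [0.69 to 1.03], with Csa6G491690 at 2216 and 641 reads and Csa2G427310 at 1863 and 980. Copies of MYB16 had nearly the same ratios, -0.65 and -0.69, and their difference lay within -0.58 and 0.68. With the length trend removed 8 of the 9 pairs still differed at least 2-fold, and the pair of MYB73 Csa6G491690 and Csa5G209490 did not. Near-identical copies can exchange reads in counting, and how the authors treated reads with several matches is not given in the sources used here.

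**Figure D3:**
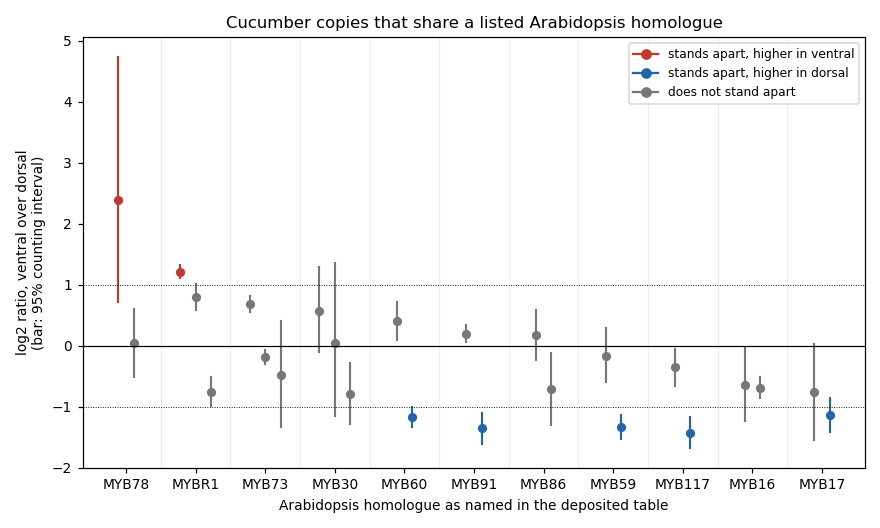
Log2 ratio, ventral over dorsal, of each measured copy for the 11 Arabidopsis homologues with 2 or 3 measured cucumber copies. Bars are 95% counting intervals and dotted lines mark 2-fold, and the copies of MYB78, MYBR1, MYB60 and MYB91 lie far apart while those of MYB16 lie together.

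Across all measured genes the ratio followed exonic length, the length implied by reads over RPKM, with its lowest trend value, -0.49 on the log2 scale, at about 724 bp and higher values on either side. Of the 53 measured MYB genes 8 were shorter than that. The Spearman correlation was 0.39 over 17462 genes and 0.07 over the 53 MYB genes, and in each case the points share the same libraries. MYB genes were short, with a median exonic length of 1034 bp against 1465 bp for all measured genes. Removing the trend raised the ratio of 49 and lowered that of 4. It left 13 ventral-high members (all 10 from before, with MYBR1 Csa4G641690, MYB43 and MYB10 added) and 5 dorsal-high members, beside 11% and 8.25% of all measured genes. In either direction this was 18 of 53 MYB genes, beside 19.3% of all genes. The dorsal-high members that remained were MYB15, MYB98, MYB91 (Csa3G734210), MYB105 and MYB117 (Csa2G100550). Among members near the threshold, MYB94 at 2.01-fold, MYB61 at 2.08-fold and MYB32 at 2.09-fold lay just inside and MYB43 at 1.87-fold, MYBR1 Csa4G641690 at 1.74-fold and MYB30 Csa5G636490 at 1.73-fold just outside.

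**Figure D4:**
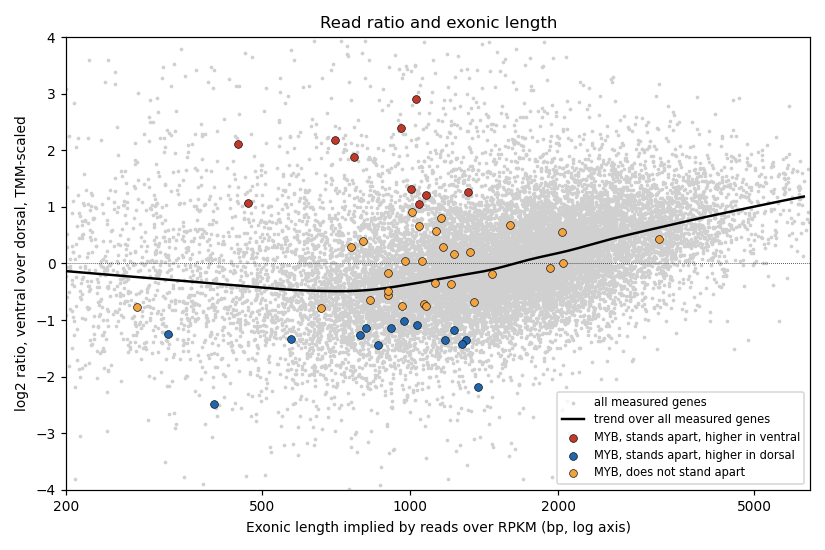
Log2 ratio, ventral over dorsal, against exonic length on a log axis for all measured genes within the plotted range, log2 ratios from -4 to 4 (grey), and for the 53 measured MYB genes (coloured by whether they stood apart). The black line is the trend over all measured genes, and most MYB genes lie where that line is below 0.

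Partners and known target genes were read from lists of Arabidopsis loci. Of 19 listed partner loci 10 were found, with 14 genes, of which 12 were measured at a median log2 ratio of 0.33. Of the 12, 3 were ventral-high (25%, beside 13.2% of all measured genes) and none dorsal-high (beside 11.5%). The 3 ventral-high genes were the WD40 protein TTG1, with which MYB and bHLH proteins form a complex (Csa4G097650, 368 and 67 reads, 2.54-fold), the jasmonate factor MYC2 (Csa3G011620, 10976 and 1677 reads, 3.03-fold) and JAZ1 (Csa1G597690, 1147 and 132 reads, 4.02-fold). A second MYC2 copy (Csa3G902270, 2135 and 1332 reads) was at -0.43 [-0.53 to -0.33], the 1 measured partner below equal levels. The bHLH partner GL3 (Csa6G003480) was at 0.22, and the single-repeat competitor TRY had 8 and 2 reads.

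Of 94 target genes 73 were measured, with 10 ventral-high and 9 dorsal-high, 13.7% and 12.3%. These were close to the shares of all measured genes, 13.2% and 11.5%. Flavonoid enzymes had a median of -0.46 over 10 genes, and a TT7 copy (Csa5G076690, 27 and 30 reads) was the 1 that stood apart, dorsal-high. Of 37 lignin and wall genes 6 were ventral-high and 5 dorsal-high. The former were 4 PAL2 copies, 1 PAL1 copy and a C4H copy, enzymes at the entry of the pathway, and among the latter was a COMT1 copy (Csa3G046230) with 1963 ventral and 5757 dorsal reads, 6.33-fold higher dorsally. The pathway entry did not lie to the ventral side as a whole. The ventral-high C4H copy had 26 and 1 reads, while the most-read copy (Csa6G133710, 1870 and 1160 reads) was at -0.42. Measured PAL copies that did not stand apart ran from -0.76 to 0.89. The 15 cuticle and wax genes had a median of -0.24, with CYP86A8 (Csa6G004550) 2.05-fold ventral-high and LACS2, CER2 and a CER1 copy dorsal-high. All 11 mitotic genes had ratios above equal levels, with a median of 0.84, beside 8814 of all 17462 measured genes above equal levels. HIK, CYCA1;1 and a PLE copy stood apart (27.3% ventral-high, beside 13.2% of all measured genes). After removal of the length trend the median was 0.56. HIK and CYCA1;1 then no longer stood apart, and 1 other gene was gained. No direction of a MYB group was read from its targets.

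The 28 MYB genes that were not measured had 1 to 15 reads in all and at most 2.40 RPKM in either library. In 12 of them 1 library was at 0, the ventral one for 3 genes and the dorsal one for 9. Besides those already named these were MYB36 (Csa6G496960, 0 and 1 reads), MYB80 (Csa3G045200, 1 and 0), MYB93 (2 and 0), MYB79 (3 and 0), MYB305 (4 and 0) and MYB52 (Csa1G029570, 3 and 0). Up to 3 reads remain possible behind such a 0, or 0.137 CPM ventrally and 0.252 CPM dorsally, and a read count of 0 at this depth does not show absence. For MYB24 and for this MYB52 copy the deposited dorsal RPKM was above 0, at 0.19 and 0.09. Counting limits left out equal levels for 5 of the 28. The ratio lay on the ventral side for MYB24 and MYB108 and on the dorsal side for MYB120, MYB68 (Csa2G352410, 4 and 9 reads) and MYB62 (Csa1G488750, 4 and 9 reads). None of them was counted as ventral-high or dorsal-high, and the share among all genes below the read minimum was not computed. The 81 members lay on all 7 chromosomes, most often on chromosome 3 (25) and least often on chromosome 4 (4). The identifiers give the chromosome, and no start or end positions were used here. Among members next to each other in the identifier order, the MYB17 copies Csa3G122500 and Csa3G122510 and the MYB80 copies Csa3G045200 and Csa3G045210 share a homologue.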

How the data were processed

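Polyadenylated RNA went into directional libraries, per the labels' protocols, which mention HiSeq paired reads and GAIIx single reads but assign neither platform to a library. The submitters' processing notes list TopHat2 and edgeR. Genome build, counting tool, use of strand and treatment of multiply matching reads: not given in the sources used here. Raw read counts per gene were deposited, with gene length, beside RPKM values that the authors scaled by length and depth, per the file headers. For 28 ventral and 95 dorsal genes the deposited count is 0 while RPKM is above 0.

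The members, lists and rules were chosen with earlier results of these data known. Partner, target and marker lists were matched by Arabidopsis locus, because the table's symbols are single aliases and symbol matching caught unrelated genes. Values are given for members that stood apart, the most abundant of each role group, those with 0 reads in 1 library and those near 2-fold; others are summarised. TMM factors came from edgeR 4.0.16 (R 4.3.3) over genes with at least 20 reads, and alternative size factors from DESeq2 1.42.0. Limits are Clopper-Pearson intervals (scipy 1.17.1), run on simulated counts as a check of the code. The simulation held counting error only, as the limits assume, so it cannot show how they cover spread between fruits. Exonic length was reads over RPKM, scaled by the median of its ratio to the listed length among genes of at least 10 RPKM where that ratio exceeded 1. Its trend was fitted by lowess with a span of 0.3 (statsmodels 0.14.6). Reads are not independent molecules, so limits and floors cover counting error only.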

Additional observations from a re-analysis of the deposited data

How the results depend on the processing

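The 10 ventral-high and 14 dorsal-high members stayed within 1.5 times of these numbers with DESeq2 size factors, a minimum of 1 read, a 99% interval, a fold of 1.5 and members by symbol only. Dorsal-high members were 9 with total reads, 5 with the length trend removed and 7 with deposited RPKM, where ventral-high members were 12, 13 and 12. A minimum of 100 reads left 5 ventral-high and 8 dorsal-high members, and a fold of 3 left 5 and 2; both settings admit fewer genes by construction. The median log2 ratio of -0.17 turned to 0.0668 with total reads and 0.0858 with RPKM log2(value + 0.1). Total reads raise every ratio by the same amount; the RPKM setting lowers some members with few reads, such as MYB78 Csa7G413890 (2.39 to 2.29). No measured member that stood apart changed sign. MYB94 was lost with DESeq2 size factors. MYB17, MYB60, MYB62, MYB77 and MYB94 were lost with total reads. Adding MYB homologues named otherwise, chosen after the data were seen, gave 12 and 14. No paired analysis was possible because the ventral and the dorsal group hold 1 sample apiece, and for the same reason no library could be left out in turn. Depth limits members below 100 reads, whose interval spanned a median of 2.00 on the log2 scale against 0.43 above 500 reads.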

Other observations

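The deposited table names each gene by 1 alias, and 7 further genes list an Arabidopsis locus of a MYB factor under another name, of which 4 were measured. Both copies listed as PC-MYB1, an alias of the 3-repeat factor MYB3R1 that acts on mitotic genes, stood apart higher in the ventral library. Csa2G375240 had 1064 ventral and 135 dorsal reads, 3.65-fold [1.61 to 2.14], and Csa3G889150 had 1626 and 333 reads, 2.26-fold [1.01 to 1.35]. Their exonic lengths were 3221 and 3320 bp, and with the length trend removed the log2 ratios were 1.23 and 0.51, the second no longer standing apart. The flavonol regulator PFG1, known as MYB12 (Csa6G311520), had 150 and 64 reads and a log2 ratio of 0.12. The RAX3 copy Csa1G575180, known as MYB84, had 28 and 18 reads and a ratio of -0.47.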
